A study of Gallus gallus with 22 samples.

Results

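The 100 genes described here were those whose expression varied least over jejunum and pancreas of broilers reared with or without sugarcane bagasse (SB) in the feed. They were taken from the deposited table of normalised expression, in log2 CPM (counts scaled to the size of the library), which holds 17007 genes. A gene had to average 5 or more in the jejunum libraries and in the pancreas libraries, which 2978 genes did, and the means of the tissues had to lie within 0.5 of each other, which left 1541 genes. These were ranked by their standard deviation (SD) over all 22 libraries, and the 100 lowest were taken, so rank 1 is the gene with the lowest SD. Levels of these genes entered that choice through the limit of 5. Their tissue differences entered it through the limit of 0.5 and the SD, and their diet differences through the SD. Levels and differences are therefore given as a description, and no test of them is independent of the choice.

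All birds were male Ross 308 broilers reared in floor pens on a coarsely ground corn diet, and proximal jejunum and pancreas were taken on d 24 from 1 bird chosen from each pen. The control diet held no SB, and the SB diet had 2% SB, the fibrous residue of sugarcane pressing, added on top of the complete feed. The groups were jejunum control (n = 5), jejunum SB (n = 6), pancreas control (n = 6) and pancreas SB (n = 5), each library a whole tissue piece and not a sorted cell type. In such bulk samples, fewer cells of a type and less RNA per cell cannot be told apart. The study states that outlying samples, which stood apart from their diet group in a principal component analysis, were excluded before its tests. It reports sequencing 6 broilers per diet for jejunum and pancreas, whereas jejunum control and pancreas SB hold 5 libraries each here. A library of each of these groups is therefore absent. The study describes outliers in both tissues without naming the samples, so the absent libraries are probably the excluded ones. The genes were thus ranked by SD without them, and the SDs given may understate the spread over all birds sampled.

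A reference gene is one whose transcript is measured beside a gene of interest so that differences in RNA input can be divided out, and it serves only where its own level does not move with the tissue or the treatment. Jejunum and pancreas are a demanding pair for this purpose. The jejunum is an absorptive epithelium that renews itself from crypts, whereas pancreatic acinar cells devote most of their messenger RNA to a few secreted digestive enzymes. A shift in those few transcripts changes the share of every other gene in a library. The files list genes by Ensembl identifier alone, and the reference used here pairs none of the 100 with a name, so the genes are called by rank and their functions, sequences and the common reference genes were not analysed here.

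The gene of rank 1, ENSGALG00010022811, averaged 6.15 log2 CPM, or 71.2 CPM, with an SD of 0.059 over the 22 libraries. In the 5 jejunum control libraries it stood at 6.12, 6.18, 6.12, 6.21 and 6.10 log2 CPM. In jejunum SB it ranged from 6.01 to 6.21 with a median of 6.15 (n = 6), and in pancreas control from 6.05 to 6.22 with a median of 6.19 (n = 6). In the 5 pancreas SB libraries it stood at 6.11, 6.19, 6.17, 6.20 and 6.21 log2 CPM. All 4 groups overlapped, and the whole range from the lowest to the highest library was 0.22 on the log2 scale. The raw counts behind these values ran from 2188 to 25876, since the libraries differed in depth.

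The next genes in the ranking were close behind. The gene of rank 2 averaged 7.11 log2 CPM with an SD of 0.065, and that of rank 3 averaged 6.18 with an SD of 0.065. The genes of ranks 4 and 5 averaged 7.35 and 5.87 log2 CPM, with SDs of 0.068 and 0.069. The genes of ranks 1 to 10 had SDs from 0.059 to 0.077 and a median level of 6.60 log2 CPM, whereas those of ranks 91 to 100 had SDs from 0.112 to 0.114 and a median level of 6.09. The list has no natural end: the gene of rank 99 had an SD of 0.1139, rank 100 had 0.1142, and ranks 101, 102 and 103, just outside, had 0.1142, 0.1144 and 0.1148.

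**Figure D1:**
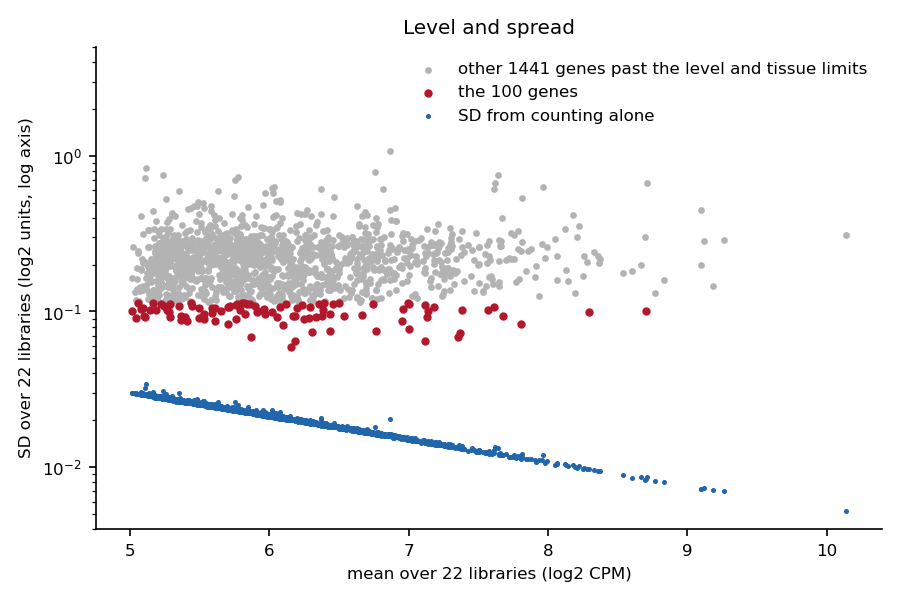
Mean over the 22 libraries (log2 CPM, horizontal) against SD over the 22 libraries (log2 units, log axis) for the 1541 genes past the level and tissue limits, with the 100 genes in red and, in blue, the SD that counting alone would give. The 100 genes lie along the lower edge at every level from 5.02 to 8.71, and all stand above the counting SD, which is a lower limit.

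The 100 genes were of moderate abundance. Their means ran from 5.02 to 8.71 log2 CPM with a median of 5.91, or from 32.3 to 418 CPM with a median of 60.3, and the 1541 genes they were drawn from had a median of 5.93 log2 CPM. Their median SD was 0.10, against 0.21 for the 1541 genes, and the gap between the lowest and the highest library had a median of 0.38 against 0.75. The lowest count of any of the 100 in any library was 998. Counting error alone would give a median SD of 0.022, and the SD was 2.92 to 12.1 times that figure (median 4.53). Even numbers made up 62.7% to 69.4% of the counts below 60 in each library. The mean total count of a group ran from 4.89e+07 in jejunum control to 1.85e+08 in pancreas SB. In every group it was several times the mean number of cleaned reads that the study lists. That counting error is therefore a lower limit and the multiples are upper limits, and the cause of the excess was not tested. 

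The most abundant of them was the gene of rank 52, ENSGALG00010007614, at 8.71 log2 CPM or 418 CPM, with an SD of 0.10. In jejunum control it stood at 8.70, 8.67, 8.85, 8.74 and 8.82 log2 CPM. In jejunum SB it ranged from 8.56 to 8.84 with a median of 8.74, and in pancreas control from 8.48 to 8.77 with a median of 8.69. In pancreas SB it stood at 8.62, 8.86, 8.71, 8.65 and 8.67. The groups overlapped throughout. Because its counts were high, its SD was 12.1 times the counting SD, the highest multiple of the 100, while the multiple for rank 1 was the lowest, at 2.92.

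Between the tissues, the genes differed by little and in both directions. The jejunum mean minus the pancreas mean ran from -0.17 to 0.17 on the log2 scale with a median of 0.01, with 56 genes higher in jejunum and 44 higher in pancreas. The difference was under 0.05 in size for 42 genes, under 0.1 for 75 and under 0.15 for 96. These figures hold for the deposited scaling. With the size factors of DESeq2 the differences ran from -0.21 to 0.13 with a median of -0.032. On total counts without the 50 most abundant genes of each tissue, a scaling chosen after seeing the data, they ran from -0.31 to 0.030. Their median was then -0.13. None of the 100 had tissues whose libraries did not overlap. Of the 1541 genes they were drawn from, 169 (11.0%) did, and of the 15032 genes tested in the series 38.8% did. Low SD over both tissues chose the 100, so nothing is read from that gap.

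The largest difference towards the jejunum was that of rank 98, ENSGALG00010027392, which averaged 5.16 log2 CPM. It stood at 5.27, 5.30, 5.19, 5.31 and 5.24 log2 CPM in jejunum control and at 5.10 to 5.34 in jejunum SB (median 5.26). In pancreas control it stood at 4.92 to 5.18 (median 5.05), and in pancreas SB at 5.12, 5.04, 5.07, 5.19 and 5.14. In the control-fed broilers the lowest jejunum library lay just above the highest pancreas library, whereas in the SB-fed broilers the tissues overlapped.

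The largest difference towards the pancreas was that of rank 66, ENSGALG00010014691, which averaged 5.61 log2 CPM. It stood at 5.48, 5.43, 5.63, 5.62 and 5.48 log2 CPM in jejunum control and at 5.43 to 5.57 in jejunum SB (median 5.54). In pancreas control it stood at 5.58 to 5.71 (median 5.67), and in pancreas SB at 5.69, 5.80, 5.70, 5.73 and 5.76. In the control-fed broilers the tissues overlapped, and in the SB-fed broilers every pancreas library was above every jejunum library.

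**Figure D2:**
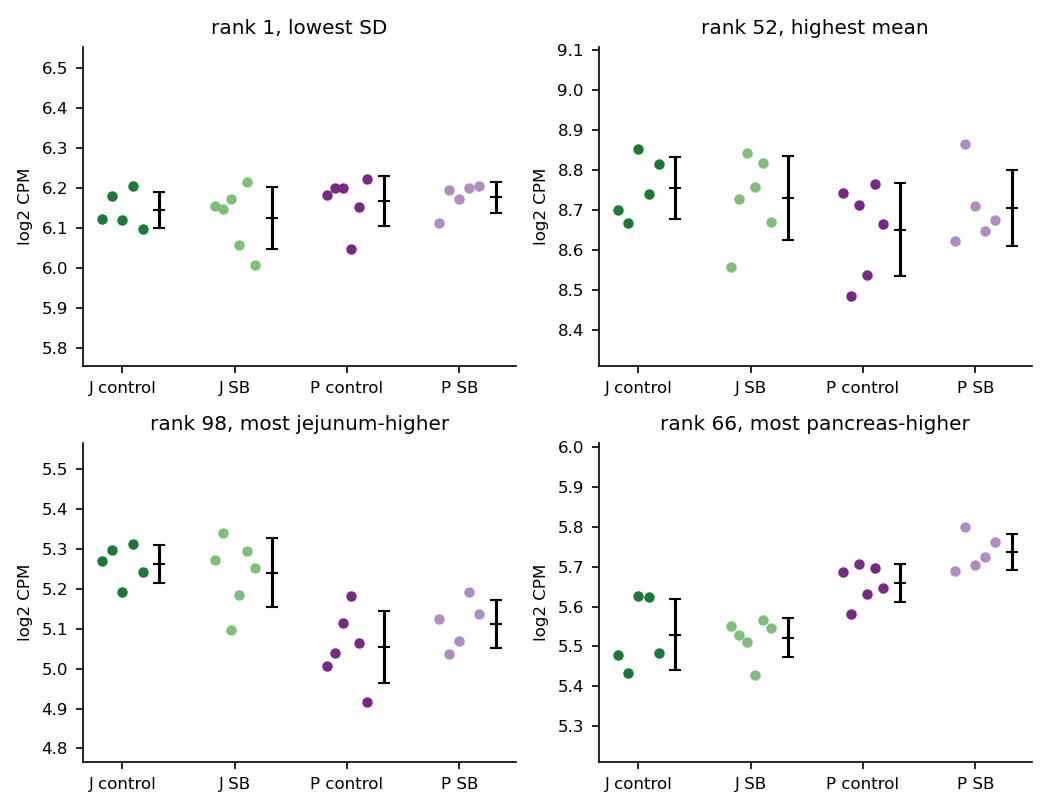
Normalised expression (log2 CPM) of the genes of ranks 1, 52, 98 and 66 in each library of jejunum (J) and pancreas (P), with the group mean and SD in black (n = 5, 6, 6 and 5). Every panel spans the same height, and the tissues part most for rank 98, higher in jejunum by 0.17, and rank 66, lower in jejunum by the same size.

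Small differences of this kind can pass a test across all genes when the spread is small. With edgeR's quasi-likelihood test and adjusted p-values over all 15032 genes, 9 of the 100 were called between tissues in control-fed broilers, 6 higher and 3 lower in jejunum, where 68.8% of all genes tested were called. In SB-fed broilers 9 were called as well, again 6 higher and 3 lower in jejunum, where the share of all genes was 67.9%. At an unadjusted p under 0.05, 13 of the 100 passed in control-fed broilers (71.3% of all genes tested) and 10 in SB-fed broilers (70.3%). Since low spread over the tissues chose these genes, nothing is read from the gap between those shares. With the size factors of DESeq2 in place of the trimmed mean of M-values (TMM) the directions changed, to 3 higher and 5 lower in control-fed broilers and to 0 higher and 5 lower in SB-fed broilers. Of all 15032 genes, 10320 and 10182 were then called. The directions also changed when only genes of at least 1 CPM in 5 libraries were tested, with TMM recomputed on those genes. Then 4 were higher and 5 lower in control-fed broilers, and 1 higher and 11 lower in SB-fed broilers. Of the 13504 genes so tested, 9632 were called in control-fed and 9533 in SB-fed broilers. With the number that jejunum and pancreas columns share as a block, over its 10 pairs, 3 were called in control-fed broilers, all higher in jejunum (ranks 21, 62 and 98), and 3 in SB-fed broilers, all lower in jejunum (ranks 32, 56 and 66). Of the 14985 genes tested with the block, 9822 were called in control-fed and 9731 in SB-fed broilers.

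Without the block, the genes called in both diets were 3, those of ranks 56, 62 and 66, and with the block there were 0. Rank 62 was not called in SB-fed broilers with the size factors of DESeq2. Leaving out jejunum control replicate 1 or 2 lost ranks 56 and 66 as calls in both diets, and leaving out replicate 5 lost rank 66. Other settings called more in both diets, with 6 by DESeq2's Wald test and 5 with libraries thinned to the smallest total. Without jejunum SB replicate 3 there were also 5. The fitted jejunum minus pancreas difference of rank 56 was -0.14 ± 0.054 (SE) on the log2 scale in control-fed broilers and -0.18 ± 0.054 in SB-fed broilers. That of rank 62 was 0.17 ± 0.054 and 0.15 ± 0.054, and that of rank 66 was -0.14 ± 0.051 and -0.22 ± 0.051. In all, 15 of the 100 were called in either diet, with fitted differences of at most 0.22 in size. Of the 15, 6 were called in control-fed broilers alone and 6 in SB-fed broilers alone. The share of all genes called in both diets, in either or in 1 alone was not computed, so nothing is read from these counts.

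Between the diets the differences were smaller still in the jejunum. The control minus SB difference in jejunum ran from -0.062 to 0.12 with a median size of 0.024, with 49 genes higher and 51 lower in control-fed broilers, and it was under 0.05 in size for 85 genes. In the pancreas it ran from -0.15 to 0.11 with a median size of 0.039, and was under 0.05 for 57 genes. There 35 genes were higher and 65 lower in control-fed broilers, and the 1541 genes had 580 higher and 961 lower. The fitted differences from edgeR, for which each tissue was scaled on its own, were 50 higher and 50 lower in the pancreas, and 58 higher and 42 lower in the jejunum.

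The largest diet difference in the jejunum was that of rank 75, at 0.12 higher in control-fed broilers. Its jejunum control libraries stood at 5.84, 6.05, 5.96, 6.02 and 5.85 log2 CPM, and its jejunum SB libraries ran from 5.76 to 5.96 with a median of 5.80. The groups overlapped through 1 SB library, replicate 1 at 5.96.

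The largest in the pancreas was that of rank 97, at -0.15. Its pancreas control libraries ran from 5.53 to 5.95 with a median of 5.76, and its pancreas SB libraries stood at 5.73, 5.97, 5.99, 5.97 and 5.83 log2 CPM, so the diets overlapped. The gene of rank 32 was the 1 gene of the 100 whose diets did not overlap in a tissue, at 6.111 to 6.258 in pancreas control and 6.261 to 6.384 in pancreas SB. The share of all genes tested with diets not overlapping was 0.298% in the pancreas and 0.131% in the jejunum, where none of the 100 did so.

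**Figure D3:**
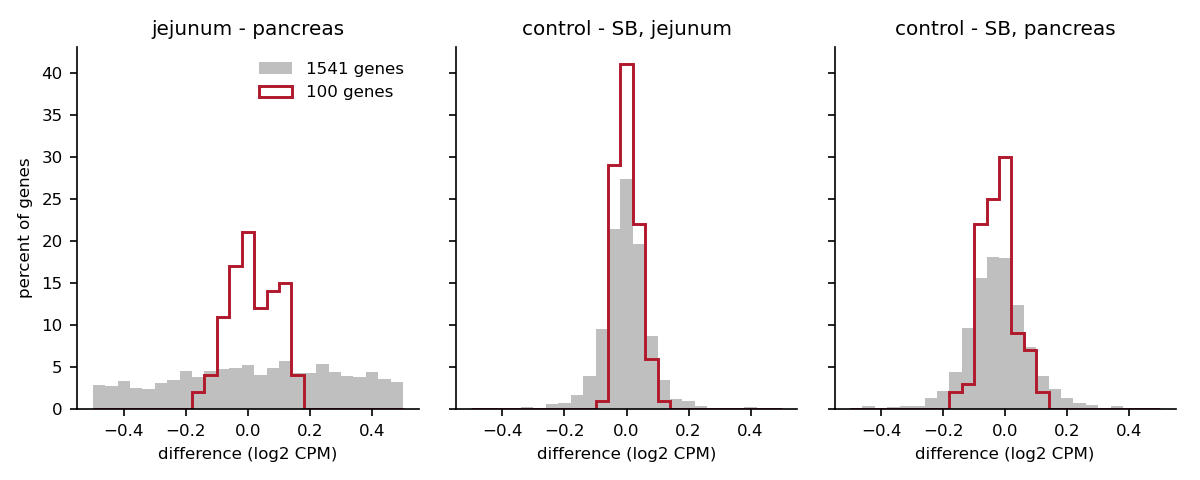
Histograms of the differences in mean log2 CPM between jejunum and pancreas and between control and SB in each tissue, as the percent of the 1541 genes (grey) and of the 100 genes (red). The axis spans -0.5 to 0.5 and leaves out 1 of the 1541 genes in the jejunum diet panel and 4 in the pancreas diet panel, and the 100 genes lie between -0.17 and 0.17 in every panel.

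No gene of the series was called between the diets by edgeR with adjusted p-values, in jejunum (0.0% of 14488 genes tested) or in pancreas (0.0% of 14116). At an unadjusted p under 0.05 none of the 100 passed in jejunum, where 286 genes did (1.97%), and 1 passed in pancreas, that of rank 69, where 543 genes did (3.85%). DESeq2's Wald test called 0 genes in jejunum and 15 in pancreas, none of them among the 100, and limma-voom called 0 in both. For the difference of the diet effect between tissues edgeR called no gene (0.0% of 15032), with 521 genes (3.47%) and none of the 100 at an unadjusted p under 0.05.

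As sums of squares, the larger part of what spread remained lay among birds of 1 group. Of the summed squares of the 100 genes, 76.9% lay within groups, 16.9% between tissues and 6.25% between diets within a tissue, and for the 1541 genes these parts were 63.6%, 32.4% and 3.99%. With 22 libraries in 4 groups, most of such a sum falls within groups even where no group differs. Nothing is therefore read from the within-group part being the largest. The SD within groups had a median of 0.096 for the 100 genes and 0.16 for the 1541. Within the diet groups of a tissue, the SD was higher in pancreas than in jejunum for 55 of the 100 genes and for 805 of the 1541 (52.2%).

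A part of that spread was shared by the genes of a library. In pancreas control replicate 4, 79 of the 100 genes were below their own mean, with a median deviation of -0.079 on the log2 scale, and in pancreas control replicate 2, 73 were below, with a median of -0.075. In pancreas SB replicate 2, the deepest library, 76 were above their mean, with a median of 0.068. The other 19 libraries had medians between -0.037 and 0.044. Pancreas control replicate 2 held the lowest value of 16 genes and replicate 4 that of 14, while pancreas SB replicate 2 held the highest value of 13. The part of depth or RNA quality in these offsets was not tested.

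**Figure D4:**
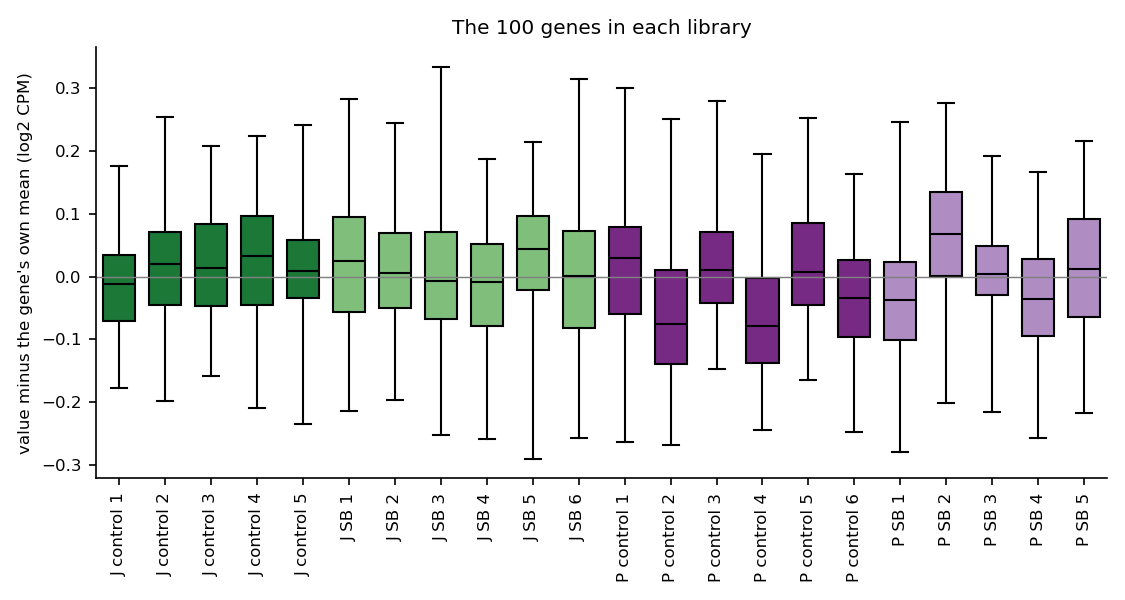
Each gene's value minus its own mean over the 22 libraries (log2 CPM), for the 100 genes in each library of jejunum (J) and pancreas (P), as boxes of the quartiles with the median in black and whiskers to the lowest and highest gene. Pancreas control replicates 2 and 4 have the lowest medians, at -0.075 and -0.079, and pancreas SB replicate 2 the highest, at 0.068.

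The same rule was also applied to the libraries of each diet alone. The genes it took were then measured in the other diet, with the normalisation of all 22 libraries kept. The 100 genes chosen by the same rule in the 11 control libraries had a median SD of 0.12 in the 11 SB libraries. All genes that passed the level and tissue limits in control had a median of 0.20 in the same SB libraries. All 100 genes chosen in control kept their tissue means within 0.5 of each other, with a largest difference of 0.24. The share of all genes past the limits that did so was not computed, so nothing is read from that count. The median size of the difference was 0.070 for these 100 and 0.21 for all genes past the limits. By SD, 99 of these 100 lay below the median of all genes past the limits and 52 among the lowest 10%. Chosen in SB and measured in control, the median SD was 0.12, against 0.22 for all genes that passed the limits in SB. The largest tissue difference was 0.32, and the median size was 0.089 against 0.23 for all genes past the limits. By SD, 98 genes lay below the median and 51 among the lowest 10%. The lists chosen in each diet shared 37 of 100 genes. Of the 100 genes described here, the control list held 72 and the SB list 62. Choice and measurement shared the scale set on all 22 libraries, so nothing is read from these figures about use as reference genes.

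Ratios between genes do not depend on how libraries are scaled, and are what a quantitative PCR normalised to a reference gene measures. The SD over libraries of the log2 ratio of 2 of the 100 genes had a median of 0.13 over 4950 pairs and ran from 0.056 to 0.20, while for pairs of the 1541 genes the median was 0.29 and the lowest 0.042, below any pair of the 100. These ratios come from the same libraries whose low SD chose the 100 genes, so nothing is read from the gap between the medians. The lowest pair among the 100 was that of ranks 1 and 2, at 0.056, and the same pair was left last when the gene with the highest mean ratio SD was dropped stepwise. Averaged over its ratios to the other 99, the gene of rank 9 was lowest at 0.109, followed by rank 1 at 0.110.

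An average of several genes can also set the scale of a library. When the genes lowest in SD were chosen in control and applied to the SB libraries, the offset of a library from the TMM scale had an SD of 0.094 with 1 gene, 0.084 with 3, 0.056 with 10 and 0.031 with 100. Chosen in SB and applied to control, these SDs were 0.11, 0.058, 0.052 and 0.048. The genes were chosen for low SD on that same TMM scale, and no equal number of other genes was drawn. Nothing is therefore read from the size of these offsets or from their decline with more genes. A part of these offsets lay between the tissues. The mean offset in jejunum minus that in pancreas was -0.033, -0.047, -0.053 and -0.005 for genes chosen in control. For genes chosen in SB it was 0.12, 0.030, 0.028 and 0.053, so it did not shrink steadily with more genes. Whether these tissue parts exceed the scatter of libraries was not tested.

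That these genes are level across the tissues holds on the TMM scale and not as a share of the RNA sequenced. The 100 genes together took 1.36% to 1.59% of the counts of a jejunum library and 0.378% to 0.575% of those of a pancreas library, with no overlap. The 10 most abundant genes took 3.77% to 7.12% of the counts in jejunum and 51.6% to 61.8% in pancreas, and the single most abundant gene 0.704% to 1.93% and 15.3% to 25.6%. TMM, which assumes that most genes are level between libraries, gave factors of 1.66 to 1.96 to the jejunum libraries and 0.461 to 0.732 to the pancreas libraries.

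Scaled by total counts instead, the 100 genes were all higher in jejunum, by 1.46 to 1.80 on the log2 scale with a median of 1.63, and their median SD was 0.86. The shift from the TMM scale was the same 1.63 for the 2978 genes with means of 5 or more in both tissues. Relative to those genes, the 100 stood as before. On that scale 294 genes passed the level and tissue limits, and the 100 lowest in SD among them included 0 of the 100 described here. Which of the scales matches the number of transcripts per cell cannot be told from these libraries, and no spiked-in standard was analysed here.

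**Figure D5:**
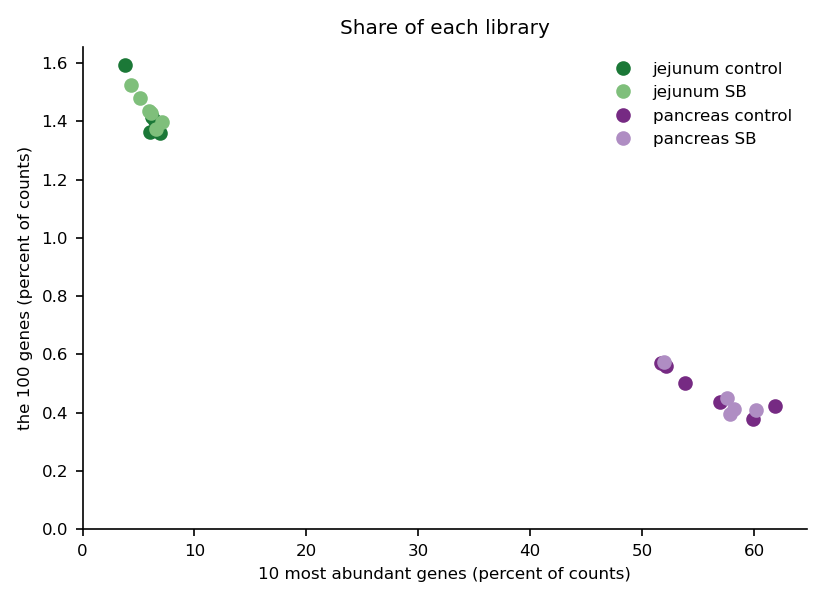
Share of a library's counts taken by its 10 most abundant genes (percent, horizontal) against the share taken by the 100 genes (percent, vertical), 1 point per library. The jejunum libraries lie at 1.36% to 1.59% and the pancreas libraries at 0.378% to 0.575% for the 100 genes.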

How the data were processed

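Stranded mRNA libraries of 22 samples were analysed, from jejunum or pancreas of 1 bird per pen, as the study describes. The authors trimmed and aligned reads to GRCg7b and deposited raw counts per gene, with library totals of 42540952 to 300479804. The authors also deposited log2 CPM, which edgeR's formula with TMM over 22 libraries and a prior count of 2 recomputed for 374154 of 374154 values within 1e-06. Even low counts were in excess, the cause of which is not given in the sources used here. Of the 17007 genes 618 had no count. Counts were tested with edgeR 4.0.16 (glmQLFit and glmQLFTest in R 4.3.3) after a filter (minimum count 10, minimum total 15) and TMM, tissues in 1 fit over the 4 groups and diets within each tissue, with Benjamini-Hochberg adjustment and a threshold of 0.05. Alternatives used DESeq2 1.42.0 and limma 3.58.1. Both the rule and the tests were tested on simulated data. No 2 libraries of a group were copies (smallest mean chi-square 50.2 per gene over 50 pairs). The study took both tissues from the same birds, and the column names hold 12 numbers, 6 per diet, of which 10 occur in both tissues. No source used here states that a number is a bird, and over the 10 pairs the correlation of deviations was -0.022 to 0.24 (median 0.095), over 0.1 in 4. In 5 of the 10 pairs the jejunum library correlated more with the pancreas library of its number than with any other of its diet. Whether the numbers are birds was not tested further. The fit with the number as a block is therefore given beside the tissue calls. Ratios used a pseudocount of 0.5. Genes named in the text were those at the extremes of SD, level, tissue difference and diet difference, those at the limit of the list, and, chosen after their values were seen, those of ranks 9, 21, 32, 56, 62 and 69 where a count turned on them. Gene lists and markers could not be used without gene names. The members and lists were chosen with earlier results of these data known.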

Additional observations from a re-analysis of the deposited data

Results flagged for a closer look

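Among 192 sets of 1 gene in 1 group, 11 held a library that stood apart from the rest of its group by Dixon's 95% limit, in 5 libraries. Chance flags about 1 in 20 such sets. In jejunum control replicate 4, the gene of rank 11 stood at 6.28 log2 CPM against 5.97 to 6.05 in the others, rank 13 at 7.62 against 7.81 to 7.87, rank 14 at 5.59 against 5.35 to 5.41, and rank 100 at 6.24 against 6.44 to 6.49. In jejunum SB replicate 3, rank 6 stood at 7.52 against 7.26 to 7.34 and rank 8 at 6.81 against 6.65 to 6.71. In jejunum SB replicate 1, rank 11 stood at 6.19 against 6.08 to 6.12 and rank 75 at 5.96 against 5.76 to 5.82. In pancreas control replicate 3, rank 11 stood at 6.21 against 6.01 to 6.07 and rank 49 at 5.18 against 4.98 to 5.04. In pancreas SB replicate 3, rank 13 stood at 7.74 against 7.84 to 7.87.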

How the results depend on the processing

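Of the 100 genes, the rule took 0 again on total counts, 38 with the SD within groups, 46 with a minimum mean of 6, 62 in SB-fed broilers alone and, in an alternative chosen after seeing the data, 37 on total counts without the 50 most abundant genes of each tissue. It took 84 with the size factors of DESeq2, 84 after thinning, 72 in control-fed broilers alone, 69 by ratios to the other eligible genes (also chosen after seeing the data) and 87 to 96 without 1 library, with 72 taken in every such run. On total counts all 100 were higher in jejunum, so the differences of the 44 genes higher in pancreas on the TMM scale reversed. Those of ranks 56 and 66, called in both diets, became 1.48 and 1.46. Members called between tissues in control-fed broilers were 6 to 11 without 1 library, and in SB-fed broilers 5 to 10, with 5 without jejunum SB replicate 5, pancreas SB replicate 4 or pancreas SB replicate 5, and 5 with the size factors of DESeq2. All genes called between tissues were 10020 to 10429 in control-fed and 9820 to 10320 in SB-fed broilers without 1 library. Between diets in pancreas, DESeq2's Wald test called 15 genes, and edgeR 0 to 1 without 1 library (1 without pancreas control replicate 3). DESeq2's Wald test called 1 gene for the difference of the diet effect between tissues. The cause of these changes was not tested.

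With the column number as a replicate block, 3 members were called between tissues in control-fed and 3 in SB-fed broilers. With the replicate number of the labels as a block, 0 genes were called between diets in either tissue. The labels do not say that control and SB birds of the same replicate number belong together, so nothing is read from that fit. All genes called between tissues with the column number as block were 9822 in control-fed and 9731 in SB-fed broilers, of 14985 tested.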
